A study of Mus musculus with 8 samples.

Results

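The proteasome genes described here are all genes of the deposited table whose mouse symbol starts with Psma, Psmb, Psmc, Psmd, Psme, Psmf or Psmg followed by a number, apart from Psmc3ip, which shares the prefix by name only. There were 49 such genes among the 21959 of the table. Of these, 47 had an FPKM (a read count scaled to exon length and to the mapped reads of the library) of 1 or more in at least 4 of the 8 libraries and were tested, and Psmb8 and Psmb9 were not. The family was taken up with its genotype comparison in these data already known, so counts over it describe the family and support no further statement. No gene was left out for its level.

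The proteasome is the main protease complex of the cytosol and nucleus and degrades proteins that carry ubiquitin chains. Its barrel-shaped core particle has outer rings of alpha subunits, which gate the entry, and inner rings of beta subunits, of which Psmb5, Psmb6 and Psmb7 supply the chymotrypsin-like, caspase-like and trypsin-like active sites. A regulatory particle, made of an ATPase ring with its base and a lid, binds the core, recognises and unfolds substrates and removes their ubiquitin, while other activators can take its place. Immune cells use Psmb8, Psmb9 and Psmb10 in place of the constitutive active subunits, and Psma8 is a germ-cell form of Psma7 best known from male meiosis.

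The study measured RNA from oocytes of postnatal day 1 (P1) mouse ovaries, either wild type or Rbpms2 knockout, with 4 libraries per genotype. Rbpms2 encodes an RNA-binding protein, and the sources used here do not say which part of the gene is deleted, in which strain or in which cells. Per the labels, the ovaries of both genotypes were digested with collagenase at 2 mg/ml and trypsin at 0.25%, and 5 to 10 cells judged to be primordial oocytes were picked by mouth pipette into each tube and amplified for 18 cycles. Whether different tubes held cells of different animals is not said in the labels. The p-values therefore refer to variation from tube to tube, part of which may be technical. In such pooled samples a smaller share of cells of a type and less RNA per cell cannot be told apart.

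Depth from the FPKM steps, in reads counted on genes, ran from 8321942 to 11941359 in wild-type and from 9564416 to 14542893 in knockout libraries. Rbpms2 itself averaged 169 ± 32.3 FPKM in wild type and 42.5 ± 11.5 in the knockout (SD, n = 4 each), a log2 fold change of -1.98 (adjusted p = 7.26e-05, limma). All 12 germ-cell and oocyte markers were called, 9 lower and 3 higher in the knockout. Ddx4, Dazl and Sycp3 were 2.85-fold, 2.08-fold and 3.49-fold higher, Kit, Nobox and Dppa3 were 6.79-fold, 10.4-fold and 22.3-fold lower, and Gdf9 and Zp3 averaged 0.355 and 0.151 FPKM in the knockout. Somatic markers varied between libraries: the 12 immune markers summed to 7.52 to 30.2 FPKM in wild type and to 19.1 to 472 in the knockout, and the 12 granulosa markers to 2.26 to 76.0 and 15.9 to 635. The highest sums of both lists were in replicate 3 of each genotype. The 10 stromal markers summed to 4.01 to 82.9 FPKM in wild type and to 13.3 to 413 in the knockout, with 334 in knockout replicate 2 and 413 in knockout replicate 3. The 10 endothelial markers summed to 313 FPKM in knockout replicate 1 and to 2.66 to 7.04 in the other 7 libraries. The 7 erythroid markers summed to 4211, 161, 5368 and 11.9 FPKM in wild-type replicates 1 to 4. In knockout replicates 1 to 4 they summed to 102, 2819, 3212 and 99.6 FPKM. The part of somatic cells in the results below was not tested, and values without single libraries are given where a member depended on them.

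Proteasome genes moved in both directions between the genotypes, while the summed level of the family overlapped between them. Summed over all 49 genes, the level was 4220 ± 414 FPKM in wild type and 4994 ± 735 in the knockout (SD, n = 4 each), which was 1.28 ± 0.10% and 1.54 ± 0.22% of all FPKM in the libraries. Of the 47 tested genes, 17 were called higher and 9 lower in the knockout (limma on log2(FPKM + 1), Benjamini-Hochberg adjusted p under 0.05), and 21 were not called. Of all 11235 tested genes, 43.4% were called, 17.7% higher and 25.6% lower. Over the 47 genes the median log2 fold change was 0.33, with 30 above 0 and 17 below, against -0.12 over all tested genes, and without wild-type replicate 3 the family's median was 0.12. In 21 of the 47 genes every library of 1 genotype was above all libraries of the other, 14 with the knockout higher and 7 with the knockout lower. Among all tested genes this held for 39.9%, 15.9% higher and 24.0% lower.

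**Figure D1:**
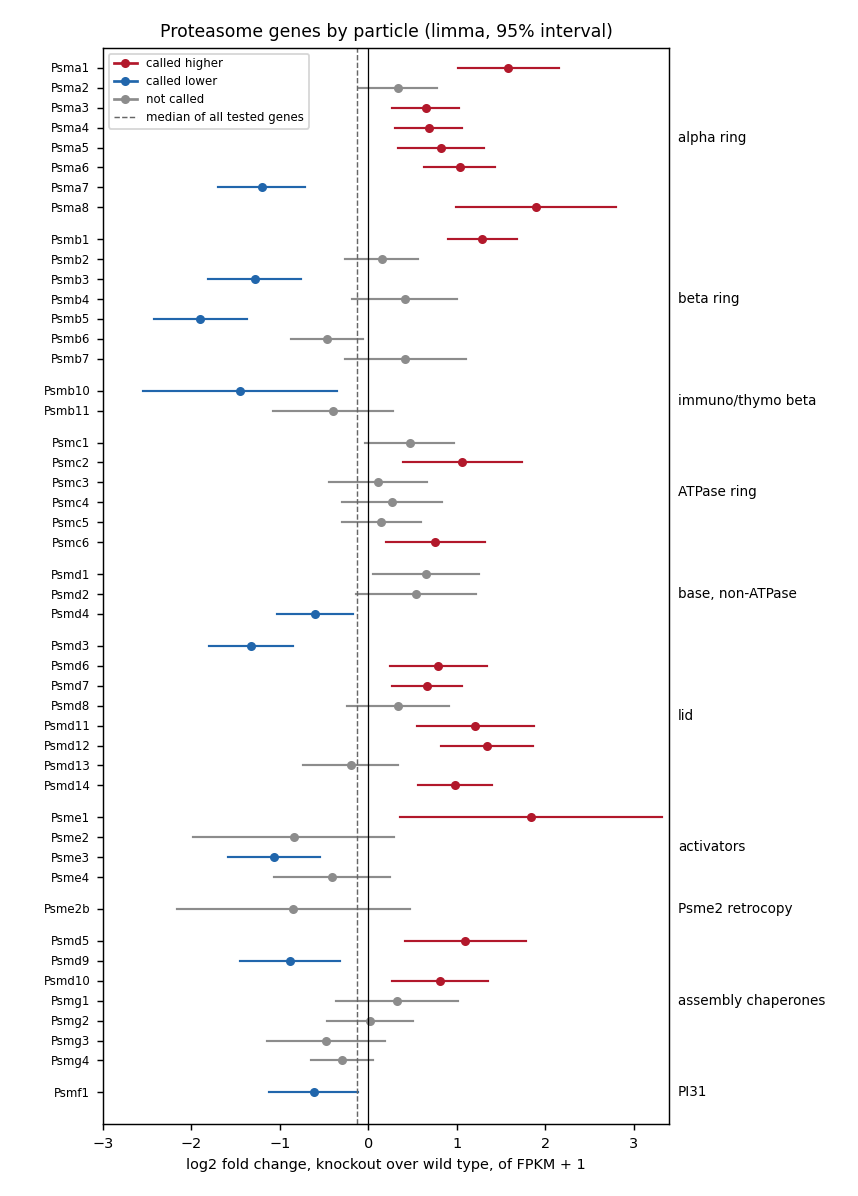
The log2 fold change of FPKM + 1, knockout over wild type, is plotted for the 47 tested proteasome genes, grouped by particle, with points for the estimate and lines for its 95% interval (limma, n = 4 per genotype). Calls in both directions stand next to each other within the alpha ring, the beta ring and the lid, and the dashed line marks the median of all tested genes at -0.12.

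Nfe2l1 encodes the transcription factor that raises proteasome gene transcription through antioxidant response elements, and its transcript fell in the knockout (values below). Promoters of some genes that moved in opposite directions are therefore shown as examples. They are the 120 bases before the transcription start, 5′ to 3′ on the gene's strand, from RefSeq promoters of the build GRCm38.p6. Capitals mark a match to the antioxidant response element core TGACNNNGC or to the CCAAT box, searched on both strands. Further upstream, and so not printed, Psmd12 had a TGACNNNGC match 247 bases before the start. Psma7 and Psma1 had CCAAT matches 196 and 126 bases before theirs. Psma1 (chr7:114276117-114276236, minus strand) and Psmd12 (chr11:107479408-107479527, plus strand) rose, and Psma7 (chr2:180042465-180042584, minus strand), Psmb5 (chr14:54617996-54618115, minus strand) and Psmb3 (chr11:97703314-97703433, plus strand) fell.
Psma1: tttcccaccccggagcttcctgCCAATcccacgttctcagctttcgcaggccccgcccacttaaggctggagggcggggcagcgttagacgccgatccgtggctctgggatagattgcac
Psmd12: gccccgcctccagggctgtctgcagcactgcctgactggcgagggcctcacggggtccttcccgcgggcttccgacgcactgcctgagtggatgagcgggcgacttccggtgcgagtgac
Psma7: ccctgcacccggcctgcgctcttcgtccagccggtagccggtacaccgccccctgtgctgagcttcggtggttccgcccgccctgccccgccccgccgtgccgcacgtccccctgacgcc
Psmb5: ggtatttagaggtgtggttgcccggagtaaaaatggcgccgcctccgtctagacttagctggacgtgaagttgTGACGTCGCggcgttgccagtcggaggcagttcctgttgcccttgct
Psmb3: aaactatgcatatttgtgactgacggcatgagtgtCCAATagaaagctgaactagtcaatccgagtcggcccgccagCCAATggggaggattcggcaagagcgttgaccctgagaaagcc

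Of the 49 genes, 41 had a RefSeq promoter entry, and 39 of those were tested. The full 300-base promoters run from 250 bases before the start to 50 after it. There, TGACNNNGC was present in 6 of the 42 promoters of tested family members (14.3%). It was present in 14.4% of the 11398 promoters of all tested genes and in 12.4% of all 32841 RefSeq mouse promoters. The 6 genes were Psmb5 and Psmd9, called lower, Psmc6 and Psmd12, called higher, and Psmb6 and Psme4, not called. CCAAT was present in 31.0% of the family's promoters, in 38.5% of those of all tested genes and in 37.4% of all. Both motifs occurred in promoters of called genes of either direction, and their part in the changes was not tested. A match is a string of letters in this window and was not tested for binding.

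In the alpha ring, 6 of the 8 genes rose in the knockout, Psma7 fell and Psma2 was not called, and 7 of the 8 did not overlap between genotypes. Beside this and the later subgroup counts, 17.7% of all tested genes were called higher and 25.6% lower, and 39.9% did not overlap. Psma1, an alpha ring subunit, was at 63.5, 50.4, 26.4 and 40.9 FPKM in the wild-type libraries and at 149, 153, 110.0 and 118 in the knockout libraries. Every knockout library was above every wild-type library, by 2.92-fold in the means (log2 fold change 1.58, SE 0.26, adjusted p = 0.000722). Psma6, another alpha ring subunit, was at 235, 239, 190.0 and 190.1 FPKM in wild type and 429, 541, 341 and 452 in the knockout. It too was separated completely, with a log2 fold change of 1.03 (SE 0.18, adjusted p = 0.00116). Psma3, Psma4 and Psma5 rose by less, from 70.2 ± 9.47 to 110.1 ± 13.5 FPKM, from 92.0 ± 14.2 to 147 ± 13.5 and from 107 ± 14.8 to 193 ± 53.0 (SD, n = 4 each). Psma2 averaged 111 ± 23.0 and 139.9 ± 20.2 FPKM, with overlapping libraries and a log2 fold change of 0.34 (95% interval -0.10 to 0.78, adjusted p = 0.191).

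Psma7 was the alpha subunit that fell. Its libraries were at 167, 186, 174 and 242 FPKM in wild type and at 61.1, 116, 89.3 and 71.0 in the knockout. The genotypes did not overlap and the means were 192 ± 33.9 and 84.5 ± 24.3 FPKM, 2.28-fold lower in the knockout (log2 fold change -1.21, SE 0.22, adjusted p = 0.00152). Psma8, which can occupy the Psma7 position in germ cells, was at 18.6, 16.6, 21.2 and 5.69 FPKM in wild type and at 59.3, 69.6, 28.7 and 76.1 in the knockout. Its lowest knockout library, replicate 3, still lay above all wild-type libraries, and the means were 15.5 ± 6.82 and 58.4 ± 21.0 FPKM, 3.76-fold higher (log2 fold change 1.89, SE 0.41, adjusted p = 0.00365).

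The pair therefore moved in opposite directions within the same libraries. Psma8 made up 10.0%, 8.17%, 10.8% and 2.30% of the summed FPKM of both genes in wild type and 49.3%, 37.4%, 24.3% and 51.7% in the knockout. Mean shares were 7.84 ± 3.86% and 40.7 ± 12.6% (SD, n = 4 each), a description with no test of its own. FPKM divides by the union of all annotated exons, which for Psma7 is 3071 bases against 914 in its longest coding transcript, and for Psma8 is 2494 against 1692. With the recovered reads divided by the transcript length instead, the shares were 3.63 ± 1.82% in wild type and 23.7 ± 9.02% in the knockout. On either length scale every knockout library had a higher share than every wild-type library.

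**Figure D2:**
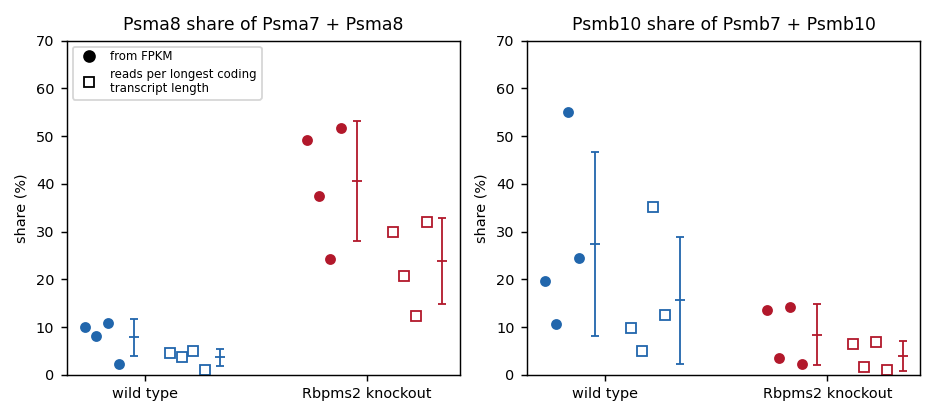
The share of Psma8 in Psma7 + Psma8 (left) and of Psmb10 in Psmb7 + Psmb10 (right) is plotted in percent for each library, from FPKM (dots) and from reads per length of the longest coding transcript (squares), with bars for mean ± SD over 4 libraries. The Psma8 share lies at 2.30% to 10.8% in wild type and 24.3% to 51.7% in the knockout on the FPKM scale, while the Psmb10 shares of the genotypes overlap.

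In the beta ring, Psmb1 rose, Psmb3 and Psmb5 fell, and Psmb2, Psmb4, Psmb6 and Psmb7 were not called. Psmb5, the chymotrypsin-like subunit and the main target of proteasome inhibitor drugs, was at 279, 283, 381 and 301 FPKM in wild type and at 85.4, 103, 102 and 50.5 in the knockout. All 4 knockout libraries were far below the wild type, and the means of 311 ± 47.5 and 85.1 ± 24.4 FPKM differed 3.66-fold (log2 fold change -1.90, SE 0.24, adjusted p = 0.000134). This was the largest fall among the 47 tested proteasome genes. Psmb3, a beta subunit without an active site, was at 107, 114, 113 and 169 FPKM in wild type and at 50.7, 56.8, 65.4 and 33.5 in the knockout. It did not overlap either, with a log2 fold change of -1.28 (SE 0.24, adjusted p = 0.00151).

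Psmb1, another beta subunit without an active site, went the other way, from 62.7, 75.1, 73.4 and 64.9 FPKM in wild type to 198, 189.7, 134 and 164 in the knockout. The knockout libraries all exceeded the wild type, with a log2 fold change of 1.29 (SE 0.18, adjusted p = 0.00024). The active-site genes besides Psmb5 gave no call. Psmb6 averaged 307 ± 24.9 FPKM in wild type and 226 ± 51.2 in the knockout, a log2 fold change of -0.47 (95% interval -0.87 to -0.06, adjusted p = 0.0616), and it was called lower without knockout replicate 2. Psmb7 averaged 33.4 ± 13.7 and 41.5 ± 3.43 FPKM (log2 fold change 0.41, 95% interval -0.27 to 1.10, adjusted p = 0.3). Psmb2 averaged 505 ± 63.3 and 566 ± 123 FPKM and Psmb4 194 ± 13.1 and 277 ± 129, with overlapping libraries in both genes.

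These shifts changed the order of the 14 constitutive core genes, alpha and beta rings without Psma8. By mean FPKM, Psmb5 ranked 2 in wild type and 11 in the knockout, Psma7 6 and 12, and Psmb3 7 and 13, while Psmb1 moved from rank 12 to 6 and Psma1 from 13 to 9. Ranks depend on the length used: per length of the longest coding transcript, Psmb5 ranked 6 and 14, Psma7 3 and 8, Psmb3 4 and 11, Psmb1 9 and 5, and Psma1 12 and 6. On both scales Psmb5, Psma7 and Psmb3 ranked lower and Psmb1 and Psma1 higher in the knockout than in wild type. On the FPKM scale, the neighbours Psmb5 and Psmb6 in wild type, at 311 ± 47.5 and 307 ± 24.9 FPKM, and Psmb5 and Psma7 in the knockout, at 85.1 ± 24.4 and 84.5 ± 24.3, did not differ beyond their spread. The ratio of Psmb5 to Psmb1 within a library was 4.51 ± 0.58 in wild type and 0.51 ± 0.19 in the knockout, and that of Psma7 to Psma6 was 0.92 ± 0.25 and 0.194 ± 0.055 (FPKM, SD, n = 4 each), and another length would multiply a ratio by the same factor in every library. Summed over the ring, the 7 alpha genes without Psma8 were at 832 ± 98.1 FPKM in wild type and 1248 ± 194 in the knockout, and the 7 beta genes at 1546 ± 43.4 and 1418 ± 336.

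**Figure D3:**
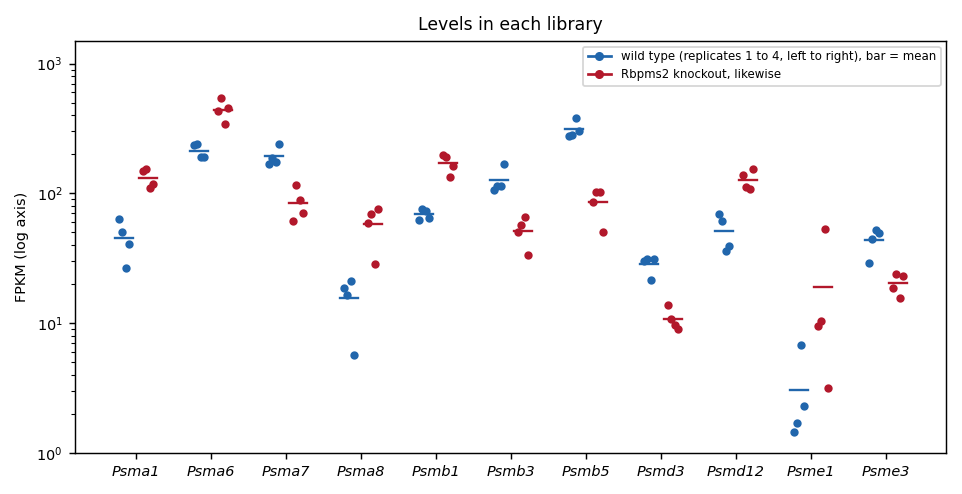
FPKM of 11 proteasome genes is plotted on a log axis in each of the 4 wild-type and 4 knockout libraries, with bars for the means. The genotypes separate completely in all of these genes except Psme1, where wild-type replicate 3 lies above knockout replicate 4.

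The inducible and thymus-specific beta genes were low in both genotypes. Psmb8, the inducible counterpart of Psmb5, was at 0, 0.0298, 0.561 and 0 FPKM in wild type and at 0.101, 0.346, 1.34 and 0.0309 in the knockout. Psmb9, the counterpart of Psmb6, was at 0, 0, 0.324 and 0 FPKM in wild type and at 0.397, 0.0564, 0.757 and 0.371 in the knockout. Both genes were highest in replicate 3 of each genotype, the library with the highest immune marker sum of its genotype, and neither passed the filter for testing. A count of 0 reads allows up to 3 reads, which for Psmb8 is 0.0743 FPKM in wild-type replicate 1 and 0.107 in wild-type replicate 4, and for Psmb9 0.0686 to 0.0985 FPKM in its 3 libraries at 0. These limits cover counting error only.

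Psmb10, the counterpart of Psmb7, was the exception in level, at 10.9, 5.14, 18.1 and 10.3 FPKM in wild type and 6.82, 1.57, 6.06 and 0.981 in the knockout. It was called lower (log2 fold change -1.45, SE 0.50, adjusted p = 0.0362), but the libraries overlapped and the call was lost in 10 of 21 alternative settings, among them the GC correction and the omission of knockout replicate 2 or 4 or wild-type replicate 1, 3 or 4. Its share of Psmb7 + Psmb10 was 27.5 ± 19.2% of FPKM in wild type, or 18.3% without replicate 3, and 8.40 ± 6.42% in the knockout. Per length of the longest coding transcript the shares were 15.6 ± 13.4% and 3.98 ± 3.12%. Psmb11, the thymus-specific counterpart of Psmb5, averaged 1.17 ± 0.303 and 0.674 ± 0.471 FPKM and was not called (adjusted p = 0.307). Interferon and antigen-presentation genes, which share the induction of Psmb8 and Psmb9 in many cells, gave 3 rises and no fall among 11 tested, where 17.7% and 25.6% of all tested genes rose and fell. H2-D1, a class I heavy chain, was at 2.89, 3.98, 10.4 and 0.0466 FPKM in wild type and 89.2, 44.9, 36.6 and 34.1 in the knockout (log2 fold change 3.63, adjusted p = 0.000832). B2m, the class I light chain, and Ifngr1, an interferon gamma receptor chain, rose by 1.75 and 1.42 on the log2 scale. B2m was at 63.7, 50.8, 124 and 51.1 FPKM in wild type and 334, 305, 402 and 66.1 in the knockout, so that knockout replicate 4 lay within the wild-type range. Knockout replicates 1, 2 and 3, where B2m was high, were also those with high endothelial, stromal or immune marker sums, whose part in it was not tested.

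In the ATPase ring, which unfolds substrates, all 6 log2 fold changes were above 0, with a median of 0.37, but only Psmc2 and Psmc6 were called. Psmc2 was at 48.9, 30.1, 17.8 and 24.5 FPKM in wild type and 69.8, 58.7, 41.2 and 78.0 in the knockout, so that wild-type replicate 1 lay above knockout replicate 3 (log2 fold change 1.06, SE 0.31, adjusted p = 0.0167). Psmc6 averaged 75.9 ± 25.9 and 123 ± 14.4 FPKM without overlap (adjusted p = 0.0335), and its call was lost when knockout replicate 1 or 4 or wild-type replicate 3 or 4 was left out. Psmc1, Psmc3, Psmc4 and Psmc5 had log2 fold changes of 0.47, 0.11, 0.26 and 0.15, and that of Psmc3 changed sign when wild-type replicate 3 or knockout replicate 2 was left out. Psmc1 was called higher without knockout replicate 3. Knockout replicate 3 had the lowest knockout level in all 6 ATPase genes, a count that was not made over all tested genes.

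Of the 3 non-ATPase genes of the base, the ubiquitin receptor Psmd4 was lower, from 124 ± 23.7 to 80.9 ± 12.4 FPKM (log2 fold change -0.61, adjusted p = 0.0278). The libraries overlapped, and that call was lost under median-of-ratios scaling and when knockout replicate 2 or 3 or wild-type replicate 1, 2 or 4 was left out. The scaffold subunits Psmd1 and Psmd2 averaged 21.8 ± 5.99 and 35.2 ± 10.9 FPKM and 112 ± 21.0 and 174 ± 70.3, and neither was called (adjusted p = 0.0734 and 0.177). Without knockout replicate 3 Psmd2 was called higher, with a log2 fold change of 0.86, and Psmd1 was called higher without wild-type replicate 1 or knockout replicate 2.

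In the lid, 5 of 8 genes rose, Psmd3 fell, and Psmd8 and Psmd13 were not called. Psmd12, a scaffold subunit of the lid, was at 68.7, 60.7, 36.1 and 39.4 FPKM in wild type and 138, 113, 108 and 153 in the knockout. The knockout libraries were all higher, 2.49-fold in the means (log2 fold change 1.34, SE 0.24, adjusted p = 0.00117). Psmd3, which lies in the same horseshoe of lid subunits, was at 30.0, 31.2, 21.6 and 30.9 FPKM in wild type and 13.7, 10.7, 9.62 and 9.03 in the knockout. Here every knockout library was lower, 2.65-fold in the means (log2 fold change -1.33, SE 0.22, adjusted p = 0.000711). The ratio of Psmd3 to Psmd12 was 0.58 ± 0.15 in wild type and 0.0856 ± 0.0182 in the knockout.

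Psmd14, the lid's deubiquitinase, averaged 55.7 ± 7.80 FPKM in wild type and 111 ± 18.6 in the knockout, without overlap (log2 fold change 0.98, SE 0.19, adjusted p = 0.00193). Psmd11 went from 18.8 ± 8.13 to 42.3 ± 7.78 FPKM (log2 fold change 1.21, adjusted p = 0.00735) and Psmd7, the partner of Psmd14, from 54.0 ± 6.74 to 86.1 ± 13.2 (log2 fold change 0.66, adjusted p = 0.0125). Psmd6 rose with overlapping libraries (79.5 ± 24.9 to 135 ± 26.4 FPKM, adjusted p = 0.0241), and its call was lost when knockout replicate 1, 2 or 4 or wild-type replicate 3 or 4 was left out. Psmd8 and Psmd13 had log2 fold changes of 0.33 (95% interval -0.24 to 0.91) and -0.20 (-0.74 to 0.34).

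Among the activators, which open the core without the ATPase ring, the subunits diverged. Psme3, the nuclear activator, was at 29.1, 44.6, 52.5 and 49.3 FPKM in wild type and 18.5, 23.9, 15.5 and 23.0 in the knockout. All knockout libraries were lower (log2 fold change -1.07, SE 0.24, adjusted p = 0.00425). Psme1, which pairs with Psme2 in the interferon-inducible activator, was at 1.44, 1.69, 6.76 and 2.28 FPKM in wild type and 9.56, 10.5, 52.8 and 3.17 in the knockout. It was called higher (log2 fold change 1.84, SE 0.67, adjusted p = 0.0461), but replicate 3 was the highest library in each genotype, the call was lost in 11 of 21 settings, and without knockout replicate 3 the log2 fold change was 1.15 (adjusted p = 0.0791). It was also lost when knockout replicate 1 or 2 or wild-type replicate 1, 2 or 4 was left out.

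Psme2 was at 33.0, 32.5, 32.6 and 24.3 FPKM in wild type and 10.0, 20.7, 54.4 and 5.99 in the knockout. Knockout replicates 1, 2 and 4 were below all wild-type libraries and knockout replicate 3 was above them, so that it was not called with all libraries (log2 fold change -0.85, adjusted p = 0.206) and was called lower without knockout replicate 3 (-1.40, adjusted p = 0.00818). The single-exon copy Psme2b, which may share reads with Psme2 and is therefore uncertain, followed the same pattern, at 11.7, 14.3, 11.0 and 8.04 FPKM against 3.98, 7.89, 21.8 and 0.999. Its log2 fold change was -0.85 with all libraries (adjusted p = 0.27) and -1.44 without knockout replicate 3 (adjusted p = 0.0252). Psme4, the large single-chain activator, had a log2 fold change of -0.41 (95% interval -1.07 to 0.25, adjusted p = 0.284). Psmf1, a proteasome inhibitor, was called lower from 18.7 ± 4.79 to 11.5 ± 0.949 FPKM (adjusted p = 0.0487), a call that was lost in 13 of 21 settings, including each setting that left out 1 library except wild-type replicate 3.

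Of the 7 assembly chaperone genes, 2 rose, 1 fell and 4 were not called. Psmd5 and Psmd10, which bind ATPase subunits during base assembly, had log2 fold changes of 1.09 (adjusted p = 0.0151) and 0.81 (adjusted p = 0.0217), without overlap. The call of Psmd10 was lost when knockout replicate 4 or wild-type replicate 3 or 4 was left out. Psmd9, a base chaperone too, went from 13.5 ± 2.94 to 6.81 ± 1.61 FPKM (log2 fold change -0.89, adjusted p = 0.0166), lost without wild-type replicate 2 or 4, and 25.5% of its exon bases overlap the antisense gene Gm26745, from which reads cannot be told apart because the strand setting of the counting is not given. Psmg1, Psmg2, Psmg3 and Psmg4, which guide assembly of the alpha ring, had log2 fold changes of 0.32, 0.02, -0.48 and -0.30, and that of Psmg2 was -0.045 under quantile scaling.

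Other proteasome genes outside the family's symbols were read from fixed lists. Among 17 tested partners, 4 rose and 4 fell, and in this and the next lists the shares of all tested genes are again 17.7% and 25.6%. The subunits Adrm1 and Sem1 and the assembly factor Pomp were not called, with log2 fold changes of -0.38, -0.17 and -0.30, nor were Uchl5, a proteasome-bound deubiquitinase (0.36), and Ecpas, an adaptor of the complex (-0.68, adjusted p = 0.0586). Fbxo7, an F-box protein that binds the inhibitor Psmf1, rose from 4.59 ± 0.625 to 27.4 ± 8.78 FPKM (log2 fold change 2.29, adjusted p = 0.000129). Usp14, a deubiquitinase of the regulatory particle, Akirin1, a relative of Akirin2, and Txnl1, a thioredoxin-like partner, rose by 1.16, 0.84 and 0.83. Akirin2, which brings proteasomes into the nucleus, was at 45.3, 51.6, 59.1 and 51.7 FPKM in wild type and 10.2, 16.04, 21.3 and 22.4 in the knockout, a log2 fold change of -1.57 without overlap (adjusted p = 0.000601). Zfand2b, a zinc-finger protein that binds proteasomes, and the ubiquitin ligases Ubr4 and Kcmf1 had log2 fold changes of -2.45, -1.31 and -0.87, all called.

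Among 11 tested regulators, 2 rose and 1 fell. Nfe2l1 was at 26.7, 25.4, 26.1 and 31.6 FPKM in wild type and 10.2, 8.27, 10.3 and 8.19 in the knockout, with all knockout libraries lower (log2 fold change -1.48, SE 0.19, adjusted p = 0.000184). Ngly1, the enzyme that removes glycans from the Nfe2l1 protein during its activation, and Nfyb, a subunit of the factor that binds CCAAT, rose by 0.80 and 1.15 on the log2 scale. Nfe2l2, the related factor of the oxidative stress response, had a log2 fold change of 0.99 and was not called (adjusted p = 0.0549). Of 19 tested ubiquitin and shuttle genes 4 rose and 5 fell. The polyubiquitin gene Ubb averaged 1091 ± 388 and 1579 ± 251 FPKM and was not called (log2 fold change 0.60, adjusted p = 0.0916). The segregase cofactors Ufd1 and Nploc4, which act as a pair, had log2 fold changes of 1.32 and -0.71, both called. Uba6, an E1 enzyme, and Rps27a, a ubiquitin fusion gene, rose by 1.26 and 0.56, and the shuttle factors Ubqln4 and Rad23b and the ubiquitin ligase Stub1 had called log2 fold changes of -1.26, -0.87 and -0.76.

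The fold changes moved with the base composition of the transcripts. The median GC content of the longest coding transcript was 45.0% in the 17 genes that rose, 53.8% in the 9 that fell, 51.5% in the 21 not called and 49.98% over all tested genes. Across the 47 genes the log2 fold change correlated with GC content at Pearson's r = -0.59 and Spearman's rho = -0.65, and across 11203 tested genes at -0.33 and -0.38. These are descriptions over genes of the same 8 libraries, which are not independent. Of the 47 tested genes, 32 lay above and 15 below the median log2 fold change of tested genes within 1 percentage point of their own GC content, and of the 21 not called 15 lay above and 6 below.

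**Figure D4:**
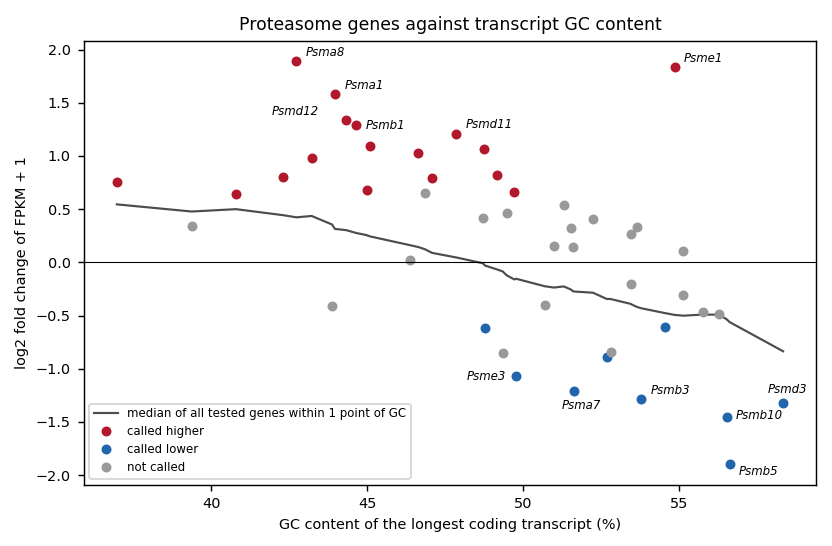
The log2 fold change of FPKM + 1, knockout over wild type, is plotted against the GC content of the longest coding transcript in percent for the 47 tested proteasome genes, with a line for the median of all tested genes within 1 percentage point of GC. Genes called higher lie mostly at the left and above the line and genes called lower at the right and below it, with Psme1 called higher at a GC content of 54.9%.

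With a correction for GC content in each library, 10 members were called higher and 6 lower, against 14.8% and 23.5% of the 11203 genes in that fit, and the median log2 fold change of the family was 0.29. Psmb5 was then at -1.43 (adjusted p = 0.000447), Psma7 at -1.06 (adjusted p = 0.00291), Psmb3 at -1.01 (adjusted p = 0.00436), Psma1 at 1.13 (adjusted p = 0.00589) and Psma8 at 1.37 (adjusted p = 0.019). The calls of Psma3, Psma4, Psmc6, Psmd14, Psmd6, Psmd5, Psmd10, Psmd4, Psmd9 and Psmb10 were lost, and Psma3 and Psmc6 changed sign, to -0.012 and -0.16. Among the partners and regulators, the rises of Usp14, Txnl1, Ngly1 and Nfyb were lost as well (adjusted p = 0.198, 0.623, 0.419 and 0.0652), as were those of Uba6 and B2m (adjusted p = 0.285 and 0.133) and the falls of Ubqln4, Nploc4 and Stub1 (adjusted p = 0.056, 0.122 and 0.947). Sem1, Ecpas and Ubb became called, at -1.06, -1.11 and 0.90. Nfe2l1 kept its call at -1.09 (adjusted p = 0.00112).

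RBPMS family proteins bind pairs of CAC in RNA, most often in 3′ untranslated regions. The 3′ untranslated regions of the 47 genes were short, with a median of 241 bases against 885 over all tested genes. A pair of CAC 1 to 12 bases apart occurred there in 13 of the 17 genes that rose, 4 of the 9 that fell and 7 of the 21 not called, and in 71.7% of all tested genes. These counts were not corrected for length. The median length was 440 bases in the genes that rose, 117 in those that fell and 169 in those not called. Single CAC occurred at 16.2, 15.0 and 11.2 per kilobase in these groups, and at 15.2 over all tested genes. Whether the pair counts differ beyond the lengths was not tested, and binding was not measured.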

How the data were processed

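The members and the gene lists were chosen with earlier results of these data known. The authors deposited FPKM per gene and library, and per the submitters' processing notes they used the build GRCm38 (mm10) with HISAT2, HTSeq and cutadapt. The sources used here give no versions, annotation release or strand setting. A microarray is mentioned in the labels' growth protocol, but the values are from sequencing. In the table of 21959 genes, 21851 matched a symbol and 21902 an exon length of GENCODE M21. Reads were recovered from FPKM times exon length, and by library 97.4% to 97.6% of them were whole within 0.02 reads. These reads were used for depth, floors, read shares and a voom fit only, and reads of amplified RNA without molecular identifiers are not independent molecules. Libraries of a genotype differed beyond sampling noise in every pair (lowest chi-square divided by its degrees of freedom 33.6).

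The test, limma 3.58.1 under R 4.3.3, was fitted to log2(FPKM + 1) of the 11235 genes that reached 1 FPKM in 4 or more libraries, with genotype as the only term, an eBayes trend and Benjamini-Hochberg adjustment at 0.05, and the steps were tested on simulated data. With the added 1, log2 fold changes of low genes come out too small, and folds given as such are ratios of mean FPKM. Every member is accounted for. From each fixed list up to 4 called genes per direction with the smallest adjusted p were named, besides genes named in any case (Nfe2l1, Nfe2l2, Pomp, Adrm1, Sem1, Usp14, Uchl5, Ecpas, Ubb and B2m). The values of some list members are not reported here. GC content, coding transcripts and 3′ untranslated regions came from GENCODE M21, and promoters from RefSeq. Alternatives were other pseudocounts, filters, scalings and variance models, a voom fit, the replicate number as a block, a GC correction (loess, span 0.5), alone and with the block, and each library left out. A fit that left out the 3 libraries richest in granulosa and stromal markers, and levels per length of the longest coding transcript, were chosen after the data were seen.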

Additional observations from a re-analysis of the deposited data

Results flagged for a closer look

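Over 98 groups of 4 libraries (49 genes in 2 genotypes), 10 libraries stood far from the other 3 of their genotype by Dixon's 95% criterion on the gap to the nearest library over the group's range. The criterion is set at 5% for independent groups, but genes of the same libraries are not independent. The number of flags can therefore not be compared with that share. In wild type, Psmb8 and Psmb9 were at or near 0 in the libraries other than replicate 3. In wild-type replicate 3, Psmb8 was at 0.561 FPKM, Psmb9 at 0.324, Psme1 at 6.76 and Psmd13 at 39.5, each above the other wild-type libraries, and Psmd3 at 21.6 was below them. In wild-type replicate 4, Psmb3 at 169 FPKM was above and Psme2 at 24.3 below the other wild-type libraries. In knockout replicate 3, Psme1 at 52.8 FPKM was above the other knockout libraries, and Psmb7 at 36.4 and Psmd14 at 83.9 were below them. Replicate 3 held the highest immune and granulosa marker sums of each genotype.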

How the results depend on the processing

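Of the 26 called members, 14 were called in all 21 alternatives (Psma1, Psma5, Psma6, Psma7, Psma8, Psmb1, Psmb3, Psmb5, Psmc2, Psmd3, Psmd7, Psmd11, Psmd12 and Psme3), and 9 uncalled members were called in some. Leaving out 1 library gave 13 to 18 members higher and 5 to 9 lower, with medians of 0.12 to 0.46, and the 5 came without wild-type replicate 4. Without the 3 libraries with the highest granulosa and stromal marker sums (wild-type replicate 3, knockout replicates 2 and 3), 16 were higher and 11 lower. Knockout replicate 1, with the highest endothelial marker sum, stayed in that fit. The GC correction gave 10 higher and 6 lower. Over all genes, leaving out 1 library gave 1516 to 1949 higher and 2393 to 3011 lower, against 1991 and 2880. By transcript length the Psma8 share was 3.63% in wild type and 23.7% in the knockout.

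Same-numbered libraries of the genotypes correlated at -0.053 to 0.361, with 2 of 4 above 0.1. Of the wild-type libraries 1, and of the knockout libraries 2, correlated best with their own number. These correlations cannot decide whether the replicate numbers pair the samples. With the replicate block, 17 members were higher and 8 lower, and with block and GC correction 14 and 7.

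Signs changed in uncalled Psma2 (-0.41), Psmd13 (0.059), Psmg2 (-0.25) and Psmg4 (0.065) and in called Psma3 (-0.012) and Psmc6 (-0.16) under the GC correction with or without the block. Leaving out 1 library took Psmc3 from -0.030 to 0.33, below 0 without wild-type replicate 3 and, separately, knockout replicate 2. It took Psmg2 from -0.12 to 0.18, below 0 without wild-type replicate 3 or 4 and, separately, knockout replicate 1, and quantile scaling took Psmg2 to -0.045. The cause of these changes was not tested. Median-of-ratios and quantile scaling and no filter moved the median of all genes by 0.13, 0.17 and 0.11, and the members' median lay above it by 0.46 in the reported fit and by 0.48, 0.23 and 0.34 in these. Amplification from few cells limits the precision of low genes such as Psmb8, Psmb9 and Psmb11.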

Other observations

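Within each genotype the family's levels also differed between libraries. Wild-type replicate 3 was the lowest wild-type library for 26 of the 47 tested genes, and knockout replicate 3 was the lowest knockout library for 31. In the lid, knockout replicate 3 was the lowest in 7 of 8 genes, and in the 14 constitutive core genes in 11. How often these libraries were the lowest among all tested genes was not counted, so these counts do not single out the family. Summed family FPKM was 3767 in wild-type replicate 3 against 3986 to 4655 in the other wild-type libraries, and 4004 in knockout replicate 3 against 4927 to 5717 in the other knockout libraries. Knockout replicate 3 thus lay within the wild-type range of the sum. The ratio of Psme1 to Psme2 was 0.0436, 0.0518, 0.207 and 0.0942 in the wild-type libraries and 0.953, 0.505, 0.971 and 0.530 in the knockout libraries. Every knockout library was higher than every wild-type library. The part of immune or endothelial cells in this ratio was not tested.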
